A study of Mus musculus with 12 samples.

Results

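Isg15, Uba7, Ube2l6, Herc6 and Usp18 make up the ISG15 conjugation system of the mouse, and they are described here as 5 of the 55401 annotated genes measured in bone marrow mesenchymal stem cells (MSCs). The genes were matched by symbol, and the set was chosen by measured values, the FPKM of TGFb1_M against TGFb1 libraries: on the log2(FPKM + 1) scale Usp18 had the largest rise of the 12016 tested genes with the supernatant of monocytic myeloid-derived suppressor cells (M-MDSCs). A filter on low values kept 4 of the 5, and Uba7, which stayed below 1 FPKM (fragments scaled to the gene's exon length and to the library's mapped reads) in every library, did not pass it.

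The study asked how secreted factors of myeloid-derived suppressor cells act on the turn of MSCs into myofibroblasts under TGF-β1. The cells came from C57BL/6 mice and were obtained from a supplier, and 3 mRNA libraries were sequenced for each of 4 groups. Control cells were untreated, TGFb1 cells received TGF-β1 at 5 ng/mL, and TGFb1_G and TGFb1_M cells received TGF-β1 together with the culture supernatant of granulocytic MDSCs (G-MDSCs, CD11b+Ly6G+Ly6Clow) or of M-MDSCs (CD11b+Ly6G-Ly6Chigh). The suppressor cells were raised from C57BL/6 bone marrow with GM-CSF and IL-6 and sorted. No group received supernatant without TGF-β1 or TGF-β1 in the unconditioned culture medium of the suppressor cells, so an effect of the supernatant and an effect of the change of medium cannot be told apart. The labels give no treatment time, and a legend of the study gives 24 h for MSCs in supernatant with TGF-β1. The labels do not say whether the 3 libraries of a group are separate cultures, and the p-values then measure the spread between these libraries, which may be technical.

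ISG15 is a small protein built of ubiquitin-like folds that type I interferon induces strongly. Like ubiquitin it is joined to lysines of other proteins by a chain of enzymes: UBA7 activates it, UBE2L6 carries it, and in the mouse HERC6 is the main ligase that transfers it. USP18 is the protease that takes ISG15 off its targets, and it also binds the IFNAR2 chain of the interferon receptor, where it dampens signaling. ISG15 is in addition released from cells and acts outside them. The table measures mRNA, so neither conjugates nor protein levels are seen.

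The stretch before the start site of Isg15 is shown because it holds a row of matches to the interferon-stimulated response element (ISRE), the site through which type I interferon switches on many of its target genes. The element was searched for on both strands as GAAANNGAAA in the 250 bases before and 50 bases after each RefSeq start of GRCm38.p6. The promoter tables matched 4 of the 5 genes, the exception being Usp18. The 250 bases before the start of Isg15, at chr4:156200819-156201068 on the minus strand, read as follows, with the matches in capitals.
Isg15: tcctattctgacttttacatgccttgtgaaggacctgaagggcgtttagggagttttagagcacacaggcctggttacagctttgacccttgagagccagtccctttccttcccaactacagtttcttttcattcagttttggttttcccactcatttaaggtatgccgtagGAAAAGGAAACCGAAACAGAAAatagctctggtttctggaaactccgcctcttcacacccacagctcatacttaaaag
The run in capitals is 3 matches that overlap by 4 bases each and begin 78, 72 and 66 bases before the start. The letters GAAANNGAAA occur in 1131 of the 32851 promoters, or 3.44%. They occur in promoters of 17 of 32 other interferon-stimulated genes with a sequence and in 0 of 23 genes of other ubiquitin-like modifiers. The windows of Uba7, Ube2l6 and Herc6 hold no such letters. Uba7 has the shorter AAANNGAAA, a search chosen after the sequences were seen, on the other strand as TTTCACTTT, from 27 bases before the RefSeq start. That shorter form is in 10.6% of all promoters, and the RefSeq start of Uba7 lies 62 bases inside the GENCODE gene model. TTCNNNGAA, the gamma-activated sequence, is in 8.30% of promoters and in none of these 4 windows.

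Each library held between 73977669 and 84565450 counts. Within a group, counts scattered 45 to 62.7 times more than the variance of counting alone, so depth is not what limits the precision of well expressed genes. MSC markers were present, with Itgb1 (CD29) at 254 FPKM and Cd44 at 39.5 FPKM in Control cells. The mean level of Kit was at most 0.0047 FPKM in any group. Kit was 1 of 4 markers taken as absent from MSCs, with Pecam1, Cdh5 and Kdr. Their summed level was 0.268 to 0.305 FPKM in Control and 0.241 to 0.315 in TGFb1 libraries. It was 0.425 to 0.565 FPKM in TGFb1_G and 0.330 to 0.497 in TGFb1_M libraries. Of 10 MSC markers 8 were tested, and all 8 were called in TGFb1 against Control, 4 higher and 4 lower, where 34.0% of all tested genes were called in either direction, from Ly6a (Sca-1) at -3.86 to Nt5e at 1.35 on the log2 scale. In TGFb1_G against TGFb1 3 were higher and 1 lower, where 5.56% of all tested genes were called, Ly6a being at 2.02. Low counts piled up at 4, 8 and 12. The intervals below therefore rest on the replicates and not on counts alone. Reads from fewer expressing cells and reads from less RNA per cell cannot be told apart in such bulk libraries.

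All 5 genes were lowest in TGFb1 cells and highest in TGFb1_M cells. In the plot of levels by library, the groups of Isg15, Uba7, Herc6 and Usp18 followed the order TGFb1, Control, TGFb1_G, TGFb1_M without overlap between neighbours. Ube2l6 differed in that its TGFb1_G and Control libraries overlapped. The share of all tested genes whose groups are apart in this way is not given here. The TGFb1 and TGFb1_M values at the ends of the order took part in the choice of the genes. Levels are compared between genes as FPKM, which is per length.

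**Figure D1:**
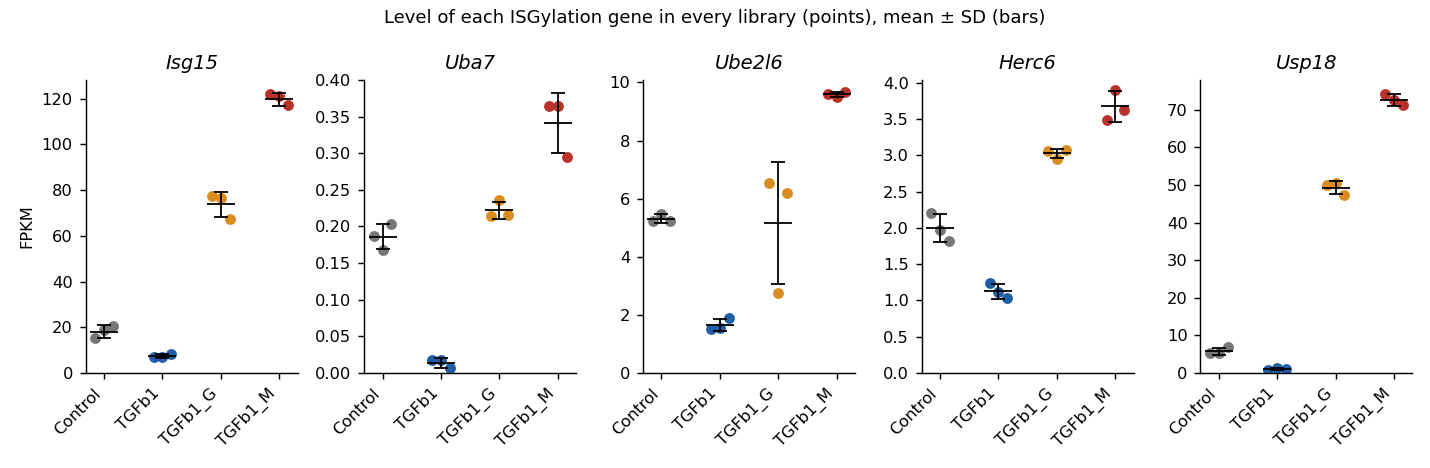
FPKM on linear axes that start at 0 for the 5 genes, with 1 point per library, 4 groups of 3 libraries and bars for the mean ± SD. Usp18 lies between 0.788 and 1.46 FPKM in TGFb1 cells and between 71.2 and 74.3 in TGFb1_M cells, and 1 TGFb1_G library stands low for Ube2l6.

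Isg15 (ENSMUSG00000035692, chromosome 4, positions 156199455 to 156200796, minus strand, 2 exons), the modifier itself, was the most abundant of the 5. Its level was 15.1, 18.8 and 20.4 FPKM in the 3 Control libraries and 6.79, 6.95 and 8.22 FPKM in the TGFb1 libraries. With G-MDSC supernatant it was 77.2, 76.5 and 67.5 FPKM, and with M-MDSC supernatant 122, 121 and 117 FPKM. The 4 groups were therefore well apart, and relative to its mean the spread was lowest in TGFb1_M libraries, with an SD of 2.75 FPKM on a mean of 120 (n = 3). Against Control, TGF-β1 lowered Isg15 by a log2 fold change of -1.25 (SE 0.11, edgeR adjusted p = 8.60e-06), a level of 40.4% of Control by mean FPKM. A second locus with 95.2% identity to Isg15 over 482 bases carried at most 4 counts in any library.

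Uba7 (ENSMUSG00000032596, chromosome 9, positions 107975505 to 107984058, plus strand, 24 exons), the activating enzyme, was by far the least abundant. It had 110, 108 and 127 counts in Control libraries and 11, 12 and 4 counts in TGFb1 libraries. TGFb1_G libraries had 138, 142 and 134 counts, and TGFb1_M libraries had 209, 204 and 176 counts. As a level, that was 0.186 ± 0.017 FPKM in Control, 0.0139 ± 0.0066 in TGFb1, 0.222 ± 0.012 in TGFb1_G and 0.341 ± 0.040 in TGFb1_M cells (SD, n = 3). The counts in TGFb1 libraries are within the range where counts pile up at multiples of 4, so the size of this fall is less certain than its direction. Gm20661, which overlaps Uba7 on the same strand, had up to 12 counts in a library, as many as Uba7 had in TGFb1 libraries. Tested among the 18761 genes that pass the looser filter of edgeR, Uba7 had a log2 fold change of -3.61 with TGF-β1 (SE 0.31, adjusted p = 5.98e-06).

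Ube2l6 (ENSMUSG00000027078, chromosome 2, positions 84798828 to 84810176, plus strand, 4 exons), the conjugating enzyme, had 5.24, 5.48 and 5.22 FPKM in Control and 1.51, 1.55 and 1.88 FPKM in TGFb1 libraries. The TGFb1_M libraries gave 9.59, 9.51 and 9.68 FPKM, an SD of 0.087. The TGFb1_G libraries gave 6.55, 2.75 and 6.20 FPKM. Replicate 2 of TGFb1_G thus had less than the other two by a wide margin, 484 counts against 1235 and 1116, while its levels of the other 4 genes lay with those of its group. A stretch of 498 bases of a Ube2l6 transcript has 90.6% identity with D10Wsu102e, a gene with up to 10275 counts in a library, and how the counting divided such reads is not given in the sources used here. TGF-β1 alone lowered Ube2l6, at a log2 fold change of -1.63 (SE 0.26, adjusted p = 0.000606).

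Herc6 (ENSMUSG00000029798, chromosome 6, positions 57581000 to 57664632, plus strand, 23 exons), the ligase, varied least between groups. Control libraries had 2.21, 1.97 and 1.82 FPKM, and TGFb1 libraries had 1.24, 1.12 and 1.03 FPKM. TGFb1_G libraries had 3.06, 2.95 and 3.07 FPKM, and TGFb1_M libraries had 3.49, 3.90 and 3.63 FPKM. The groups were narrow and did not overlap, although the whole range from lowest to highest group mean was only 3.26-fold. The log2 fold change with TGF-β1 was -0.77 (SE 0.088, adjusted p = 5.42e-05), a 1.70-fold difference that the fold limit of 2 used in the study would not call.

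Usp18 (ENSMUSG00000030107, chromosome 6, positions 121245906 to 121270917, plus strand, 11 exons), the protease, had the widest range. Its level was 5.21, 5.24 and 6.79 FPKM in Control libraries and 0.788, 1.46 and 0.985 FPKM in TGFb1 libraries. With G-MDSC supernatant it was 50.1, 50.4 and 47.4 FPKM, and with M-MDSC supernatant 74.3, 72.7 and 71.2 FPKM. In counts, the TGFb1 libraries held 199 to 375 and the TGFb1_M libraries 16728 to 17250. TGF-β1 lowered Usp18 at a log2 fold change of -2.35 (SE 0.19, edgeR adjusted p = 3.81e-06). By mean FPKM its level was 18.8% of Control. The gene Gm44148 on the opposite strand had at most 9 counts.

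In the comparison of TGFb1 with Control, 4 of the 4 tested genes were called lower at an adjusted p under 0.05, where 17.9% of all 12016 tested genes were. The median log2 fold change of the 4 was -1.44 and that of all tested genes was 0.00. The test shares its TGFb1 libraries with the contrast that chose the genes, and a gene with low values there was more likely to be chosen.

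The values that chose the genes are the TGFb1_M levels against the TGFb1 levels, and they are given without a test. On the log2(FPKM + 1) scale Usp18 rose by 5.16, and the next genes in that order were Gpx3 with 4.60 and Rpl30-ps10 with 4.50. Isg15 was number 10 with 3.86, Ube2l6 number 53 with 2.004 and Herc6 number 126 with 1.14. Fitted on the counts, where Usp18 was number 56 of the tested genes, the log2 fold changes were 6.04 for Usp18, 4.52 for Uba7, 4.01 for Isg15, 2.52 for Ube2l6 and 1.68 for Herc6. By mean FPKM the ratio of TGFb1_M to TGFb1 was 67.4 for Usp18 and 16.4 for Isg15. Against Control the same TGFb1_M means were 12.7 times higher for Usp18 and 6.60 times for Isg15, but 1.84, 1.84 and 1.81 times for Uba7, Herc6 and Ube2l6.

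G-MDSC supernatant was a second condition, whose libraries are not in the contrast that ranked Usp18 first. The members were, however, chosen with earlier results of these data known. Against TGFb1, Usp18 was higher by 5.48 (SE 0.21, edgeR adjusted p = 6.54e-08) on the log2 scale, and Isg15 by 3.31 (SE 0.12, adjusted p = 3.98e-08). Herc6 was higher by 1.40 (SE 0.088, adjusted p = 2.77e-06) and Ube2l6 by 1.63 (SE 0.26, adjusted p = 0.00371). All 4 tested genes were called higher, where 3.10% of all tested genes were. Uba7 was higher by 3.90 (SE 0.31, adjusted p = 1.88e-05) among the genes of the looser filter. These values share the TGFb1 libraries with the contrast that chose the genes. With only the TGFb1_G and TGFb1 libraries in the fit, Ube2l6 had an adjusted p of 0.053.

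The comparison of TGFb1_G with Control shares no library with the contrast that ranked Usp18 first, although the members were chosen with earlier results known. It asks whether cells given both TGF-β1 and supernatant differed from untreated cells. Higher levels than in Control were called for 3 of the 4 tested genes, where 16.4% of all tested genes were called higher. Usp18 was higher than Control by 3.13 on the log2 scale (SE 0.19, 95% interval 2.72 to 3.55, edgeR adjusted p = 4.34e-07). Isg15 was higher by 2.06 (SE 0.11, adjusted p = 2.21e-07) and Herc6 by 0.63 (SE 0.087, adjusted p = 0.00022). The protease and the modifier were thus several times above Control, while the ligase was 1.55-fold above it.

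The activating and the conjugating enzyme did not pass the test in that comparison. Ube2l6 had a log2 fold change of -0.01 with a 95% interval of -0.56 to 0.55 (adjusted p = 0.988). Without replicate 2 of TGFb1_G, the low library, it was 0.30 higher than Control (adjusted p = 0.0398). Uba7 had a log2 fold change of 0.29 with an interval of -0.28 to 0.85 (adjusted p = 0.492).

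**Figure D2:**
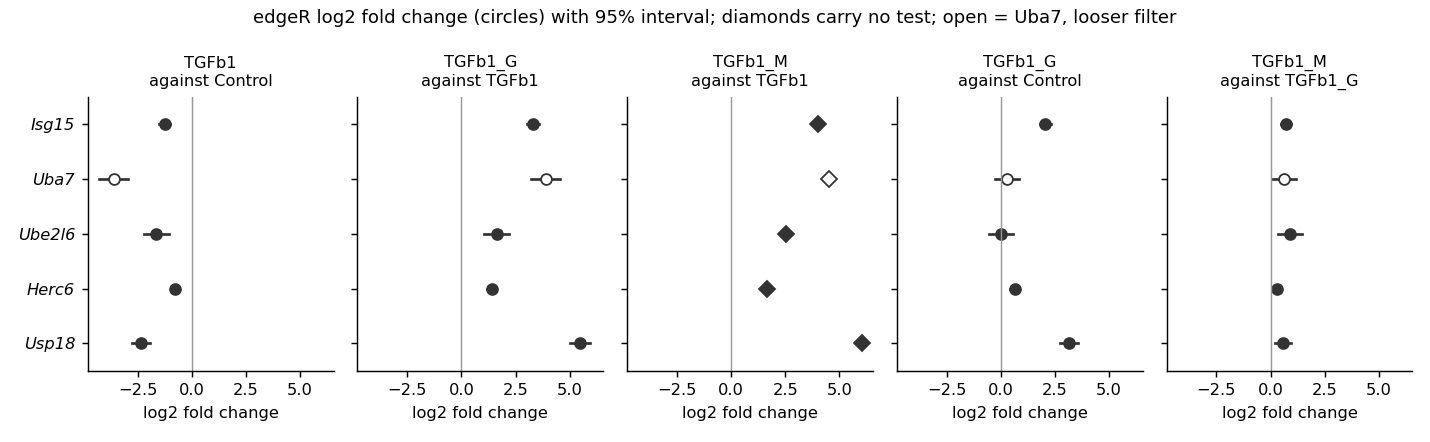
Fitted log2 fold changes of the 5 genes in 5 comparisons on 1 common axis, with lines for the 95% interval. Diamonds mark the comparison that chose the genes, shown without a test, and open symbols mark Uba7, which was fitted with the looser filter. TGF-β1 lowers all 5 genes, and Usp18 has the largest value of the 5 in each comparison with a supernatant group against TGFb1 or Control.

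The 2 supernatants were then compared with each other. Every TGFb1_M library was above every TGFb1_G library for each of the 5 genes. The share of all tested genes that separate in this way is not given here. Isg15 was higher with M-MDSC supernatant by 0.70 (SE 0.11, 95% interval 0.46 to 0.94, edgeR adjusted p = 0.046), or 1.63-fold. It was the only tested gene of the 4 that was called, where 0.0999% of all tested genes were called higher. The call did not hold in the fits that left out replicate 2 of Control, replicate 2 of TGFb1, or any single TGFb1_G or TGFb1_M library. In those fits the log2 fold change stayed between 0.64 and 0.74 and the adjusted p reached 0.155. With a replicate block the edgeR adjusted p was 0.116, with no filter on low values 0.0894 and with the looser filter 0.0654. With limma on log2(FPKM + 0.1) it was 0.0628. The fold limit of 2 used in the study would not call it either. The call held with DESeq2 (adjusted p = 4.39e-07), limma on log2(FPKM + 1) and the remaining alternatives. Usp18 was higher by 0.56 with a 95% interval of 0.18 to 0.95 (adjusted p = 0.485), Ube2l6 by 0.89 with an interval of 0.33 to 1.45 (adjusted p = 0.406) and Herc6 by 0.28 with an interval of 0.09 to 0.47 (adjusted p = 0.494). Without replicate 2 of TGFb1_G the value of Ube2l6 was 0.59 (adjusted p = 0.116). Uba7 was at 0.63 with an interval of 0.06 to 1.19 (adjusted p = 0.85). These intervals are for single genes, and after adjustment over all genes those 4 did not pass in these edgeR fits. DESeq2 called Ube2l6 (adjusted p = 0.0382). With only the TGFb1_M and TGFb1_G libraries in the fit, edgeR called Usp18 (adjusted p = 0.00815). The comparison shares its TGFb1_M libraries with the choice of the genes.

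Because the members moved by unequal amounts, their ratios differed between groups. The ratio of Isg15 to Usp18 in FPKM was 3.17 ± 0.36 in Control, 7.24 ± 2.16 in TGFb1, 1.49 ± 0.063 in TGFb1_G and 1.65 ± 0.014 in TGFb1_M cells (SD, n = 3). The modifier therefore outweighed its protease most in TGFb1 cells, where replicate 2 gave 4.75 and the others 8.61 and 8.35. The 4 groups did not overlap. The ratio of Isg15 to Ube2l6 was higher in the supernatant groups, at 3.41 ± 0.51 in Control, 4.45 ± 0.060 in TGFb1 and 12.5 ± 0.38 in TGFb1_M cells. In TGFb1_G cells it was 11.8, 27.8 and 10.9, the high value belonging to the library with little Ube2l6. The ratio of Isg15 to Herc6 was 6.87 to 11.3 in Control libraries, 5.49 to 7.98 in TGFb1 libraries, 21.9 to 25.9 in TGFb1_G libraries and 30.9 to 34.8 in TGFb1_M libraries, so that only Control and TGFb1 overlapped. These ratios are of mRNA levels and were not tested.

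**Figure D3:**
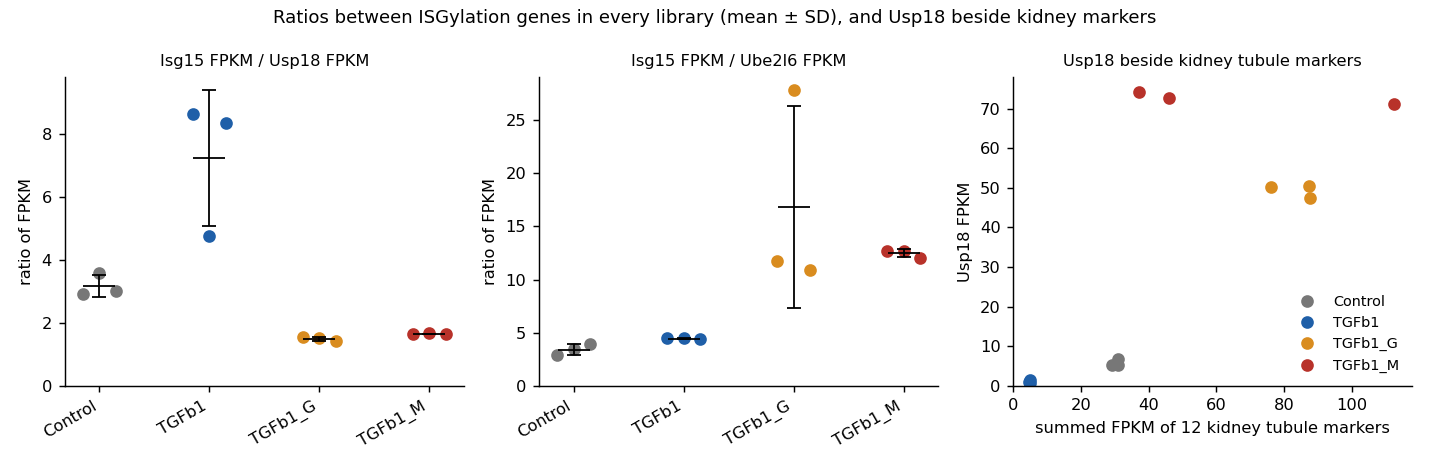
The first 2 panels plot the FPKM of Isg15 divided by that of Usp18 and of Ube2l6 in each library, with the mean ± SD of 3 libraries. The last panel plots Usp18 FPKM against the summed FPKM of 12 kidney tubule markers, and the 3 TGFb1_M libraries lie between 71.2 and 74.3 FPKM of Usp18 at marker sums from 37.2 to 112.5.

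The genes closest to Usp18 over the 12 libraries, by Pearson correlation of log2(FPKM + 1), were Bst2 (r = 0.998), which tethers virus particles to the cell, Zbp1 (0.998), a sensor of Z-form nucleic acids, Rtp4 (0.997), Oas1a (0.997) and Parp12 (0.996). For Isg15 they were Irf7 (0.998), a transcription factor that amplifies interferon responses, Gbp3 (0.997), Parp12 (0.997), Nmi (0.997) and Bst2 (0.997). Isg15 and Usp18 correlated with each other at 0.995 and Herc6 with Usp18 at 0.975, but Uba7 at 0.912 and Ube2l6 at 0.803. The 12 libraries fall into 4 treatment groups, so these values describe a shared order of groups. To set beside the Isg15 sequence, 30-base windows around the ISRE letters are given for 3 of these 8 genes. The promoter tables matched 6 of the 8, the exceptions being Rtp4 and Zbp1, and Gbp3 holds the letters in 1 of its 2 entries.
Bst2: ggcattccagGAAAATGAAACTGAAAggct
Oas1a: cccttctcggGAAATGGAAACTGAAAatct
Gbp3: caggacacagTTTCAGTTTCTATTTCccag
The capitals mark 2 overlapping matches in each window, the only ones in that promoter, against the 3 of Isg15. The first begins 130 bases before the start of Bst2, 20 before that of Oas1a and 45 before that of Gbp3, where both are on the other strand. The windows are at chr8:71537583-71537612, chr5:120907526-120907555 and chr3:142559989-142560018. Irf7, Nmi and Parp12 have a promoter entry without these letters.

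Other interferon-stimulated genes moved in the same directions. Of 42 on a list made with earlier results of these data known, 38 were tested. With TGF-β1 37 fell and 0 rose, at a median log2 fold change of -1.76, where 17.9% of all tested genes were called lower. With G-MDSC supernatant 37 of the 38 rose against TGFb1 (median 3.00), where 3.10% of all tested genes were called higher. Against Control 31 were higher and 3 lower (median 1.39). There 16.4% of all tested genes were called higher, and 34.8% were called in either direction. The 3 lower were Cmpk2 at -0.72, Rsad2 at -0.99 and Ifit2 at -0.56, enzymes and an RNA-binding protein of the antiviral response, chosen for naming after their values were seen. Isg15 and Usp18 lay above the list's median in TGFb1_G against Control, and Ube2l6, Herc6 and Uba7 lay below it. Between the supernatants, 7 of the 38 were higher with M-MDSC supernatant and 0 lower, with a median of 0.45. There 0.0999% of all tested genes were called higher. Of the 38, 32 had an unadjusted p under 0.05. DESeq2 called 22 of the 38, and limma 17 on log2(FPKM + 1) and 6 on log2(FPKM + 0.1). Among the most abundant of the list, B2m, the light chain of MHC class I, rose by 0.90 with G-MDSC supernatant against TGFb1 (adjusted p = 2.86e-06) and Bst2 by 3.77 (adjusted p = 2.26e-09).

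The receptor and signaling genes upstream were split. Of 13 tested, 8 fell with TGF-β1, where 17.9% of all tested genes were called lower. With G-MDSC supernatant 5 rose against TGFb1, where 3.10% of all tested genes were called higher. Among them were the transcription factors Irf7 at 3.79 and Irf9 at 2.17 on the log2 scale, and Socs3, an inhibitor of cytokine signaling, at 0.42. The receptor chains did not pass: Ifnar1 was at -0.12 (adjusted p = 0.759) and Ifnar2, the partner of USP18, at 0.10 (adjusted p = 0.591). The kinases Jak1 and Tyk2 were both at 0.06. In TGFb1_M against TGFb1_G edgeR called 0 of the 13, where it called 0.125% of all tested genes. Of the 13, 4 had an unadjusted p under 0.05, and DESeq2 called 4. The calls of limma were 1 on log2(FPKM + 1) and 0 on log2(FPKM + 0.1). Interferon transcripts themselves were barely seen: the 19 ligand genes together had 0 to 10 counts per library, and none reached the filter. An interferon present in the supernatant as protein would not be seen in these data.

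**Figure D4:**
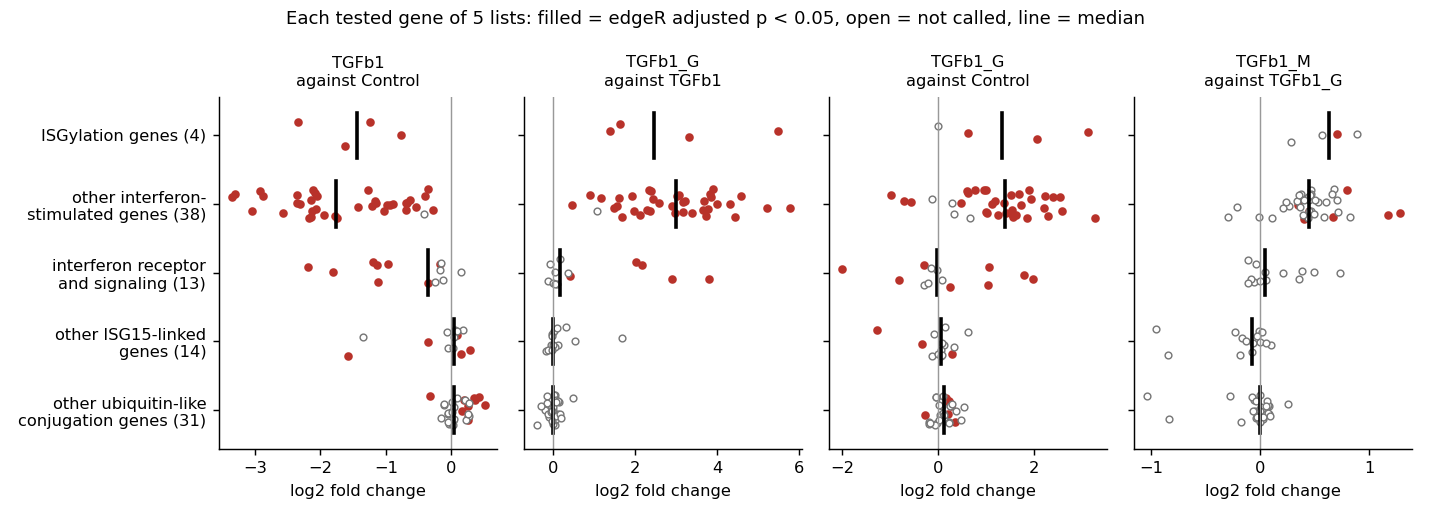
Each point is the edgeR log2 fold change of 1 tested gene, by list and comparison, and each panel has its own horizontal scale. Filled points passed an adjusted p under 0.05, open points did not, and the line is the list's median. The ISGylation genes and 38 other interferon-stimulated genes lie left of 0 under TGF-β1 alone, at medians of -1.44 and -1.76, while the ubiquitin-like conjugation genes sit near 0.

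Genes of other conjugation systems were set beside these lists. Of 31 tested enzymes and modifiers of the ubiquitin, SUMO, NEDD8, UFM1, URM1 and ATG12 systems, 9 rose and 1 fell with TGF-β1, with a median of 0.04. The called share of 32.3% lay near the 34.0% of all tested genes called in either direction. In TGFb1_G against TGFb1 edgeR called 0 of the 31, where it called 5.56% of all tested genes. Of the 31, 3 had an unadjusted p under 0.05, DESeq2 called 0 and limma 1. In TGFb1_M against TGFb1_G edgeR, DESeq2 and limma each called 0, with 2 at an unadjusted edgeR p under 0.05. There edgeR called 0.125% of all tested genes. Among the most abundant of them, Fau, Rps27a and Ubb, which encode modifiers or their ribosomal fusions, were at 0.04, 0.05 and 0.13 in TGFb1_G against TGFb1. Uba1, the ubiquitin-activating counterpart of Uba7, was at -0.02 in that comparison, where Uba7 was at 3.90.

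Of 14 tested genes of other proteins tied to ISG15, 3 rose and 2 fell with TGF-β1, a share of 35.7% that lay near the 34.0% of all tested genes. In TGFb1_G against TGFb1 edgeR called 0 of the 14, where it called 5.56% of all tested genes. Of the 14, 1 had an unadjusted p under 0.05, DESeq2 called 1 and limma 0. Trim25, a ligase for ISG15 that is itself interferon-induced, had 1833, 4503 and 1728 counts in TGFb1 libraries and 11942, 4140 and 4787 in TGFb1_M libraries. The TGFb1 libraries and the TGFb1_M libraries thus differed widely within their groups. In TGFb1_G against TGFb1 the value was 1.69 with an SE of 0.53 and did not pass (edgeR adjusted p = 0.112). Usp5, Usp14 and Usp16, other proteases reported to act on ISG15, were at -0.02, 0.05 and -0.01. The relatives Herc1 to Herc4 of the Herc6 ligase lay between -0.12 and 0.12. Ube2l3, the closest relative of Ube2l6, was at 0.54 (adjusted p = 0.318). Itgb2, a chain of the LFA-1 receptor for free ISG15, had a log2 fold change of -1.58 with TGF-β1 (adjusted p = 0.000702).

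Transcripts of another tissue moved with the supernatant groups. Of 12 kidney tubule markers, 7 had 0 counts in all Control libraries and 5 in all TGFb1 libraries, while all 12 were seen in both supernatant groups. Their summed level was 29.3 to 30.9 FPKM in Control libraries, nearly all of it Aqp1, and 4.69 to 4.84 in TGFb1, 76.0 to 87.7 in TGFb1_G and 37.2 to 112.5 in TGFb1_M libraries. Kap, an androgen-regulated protein of the proximal tubule, had 0 counts in all Control and TGFb1 libraries and 2474, 3185 and 3010 counts in TGFb1_G libraries. In TGFb1_M libraries Kap had 773, 537 and 4246 counts, while Usp18 had 17250, 16728 and 17222 and Isg15 7117, 7001 and 7107 counts in the same libraries.

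Myeloid cells were the source of the supernatants. Of 20 myeloid markers, 18 were seen in TGFb1_G and 16 in TGFb1_M cells, against 11 in Control and 10 in TGFb1 cells. Their summed level was 28.9 to 30.9 FPKM in Control, 15.7 to 17.3 in TGFb1, 29.6 to 32.3 in TGFb1_G and 23.1 to 29.1 in TGFb1_M libraries, most of it Cd14. Lyz2, the most seen of the myeloid genes that were nearly absent without supernatant, had 262, 225 and 185 counts in TGFb1_G and 184, 71 and 262 in TGFb1_M libraries. Mpo and Elane had 0 counts in all 12 libraries, and Ptprc, the common leukocyte antigen, had at most 26. The haemoglobin gene Hbb-bs had at most 8 counts in Control and TGFb1 libraries and 52 to 125 with supernatant. The part of these transcripts in the levels of the ISGylation genes was not tested. Of 6 mitochondrial and nuclear RNAs that follow RNA quality, edgeR, DESeq2 and limma called 0 in TGFb1_G against TGFb1. There 1 had an unadjusted edgeR p under 0.05, and edgeR called 5.56% of all tested genes. In TGFb1 against Control and in TGFb1_G against Control all 6 lay below 0, and 1, mt-Rnr2, was called by each tool, at -0.31 and -0.51 on the log2 scale.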

How the data were processed

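Poly(A) RNA of 12 MSC libraries was made into strand-marked libraries and sequenced. The authors aligned the reads to GRCm38 with HISAT2 2.0.4, assembled them with StringTie 1.3.4d and, per the file headers, deposited raw counts and FPKM for 55401 genes. The tool that made the counts is not given in the sources used here. The FPKM deposited by the authors hold 0.0001 for a count of 0, which was read as 0. Low counts piled up at multiples of 4 (44.3% of those up to 12 were 4, 8 or 12).

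Groups were taken from the sample titles. The test covered the 12016 genes whose FPKM reached 1 in 3 or more of the 12 libraries. edgeR 4.0.16 (R 4.3.3) with TMM scaling was run on the counts, all 4 groups sharing a single model without a replicate block, and its quasi-likelihood test was two-sided. Benjamini-Hochberg adjustment was made across the tested genes, with calls at an adjusted p under 0.05. Uba7 did not pass this filter and was fitted with filterByExpr (18761 genes). TGFb1_M against TGFb1 chose the genes and was not tested.

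The members and the gene lists were chosen with earlier results of these data known. The genes named are the 5 members, the 5 genes most correlated with Usp18 and with Isg15 over the libraries, the 4 most abundant tested genes of each list, and any tested receptor, signaling or ISG15-linked gene. Cell markers, the genes next to Usp18 in the order of rises, D10Wsu102e, Gm20661 and Gm44148, which share sequence or position with members, and the 3 interferon-stimulated genes below Control are named outside this rule, after their values were seen. A few genes under this rule are not reported here. Alternatives were DESeq2 1.42.0, limma 3.58.1 on log2(FPKM + 1) and log2(FPKM + 0.1), median-ratio scaling, other filters, only 2 groups in the fit, a replicate block, counts divided by 4, the call rule of the study (fold over 2 or under 0.5 and unadjusted p under 0.05) and leaving out each library. Libraries of the same replicate number did not deviate together (mean r = -0.0038 over 18 pairs, against 0.0020 over 36 other pairs). Copies were searched for with blastn 2.17.0 (identity of at least 90% over at least 400 bases).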

Additional observations from a re-analysis of the deposited data

Results flagged for a closer look

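Isg15 was singled out because its response differed between the supernatants: TGFb1_M libraries were 0.70 higher on the log2 scale than TGFb1_G libraries (SE 0.11, edgeR adjusted p = 0.046, higher in 3 of 3 libraries), and the difference itself was tested. The adjusted p ranged from 4.39e-07 with DESeq2 to 0.116 with a replicate block, and from 0.0131 to 0.155 when single libraries were left out. The TGFb1_M libraries also took part in the choice of the genes.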

How the results depend on the processing

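The 4 tested ISGylation genes were called lower in TGFb1 against Control, and the 4 higher in TGFb1_G against TGFb1, in most alternatives. The exceptions were Herc6 under the call rule of the study in the first comparison and Ube2l6 in the second with only those 2 groups in the fit (adjusted p = 0.053). Herc6 also missed that rule in TGFb1_G against Control. In TGFb1_M against TGFb1_G the count of called genes moved from 1 to 2 with DESeq2 and with only 2 groups in the fit (Ube2l6 and Usp18 joined, respectively), and to 0 with limma on log2(FPKM + 0.1), with no filter on low values, with filterByExpr, with a replicate block and under the call rule of the study. Leaving out single libraries gave 0 to 1. The median log2 fold change of TGFb1_M against TGFb1, 3.26, moved to 2.93 with limma on log2(FPKM + 1). Ube2l6 in TGFb1_G against Control reversed to 0.30 without TGFb1_G replicate 2 (adjusted p = 0.0398), and ranged from -0.21 to 0.30 over the leave-outs.

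The replicate block changed no other call of the 4 members of the main test (Uba7 was not fitted with it), and the numbers do not pair the libraries. It called 3932 genes in TGFb1 against Control in place of 4082, and 8 in place of 15 in TGFb1_M against TGFb1_G. In the last comparison DESeq2 called 121 genes, limma on log2(FPKM + 1) 39, the fit of 2 groups 41 and the rule of the study 66. Leaving out single libraries gave 9 to 47 genes there: 47 without TGFb1_M replicate 3, 26 without Control replicate 3, 23 without TGFb1 replicate 1 and 9 without TGFb1_G replicate 1. Also there, of the 38 other interferon-stimulated genes DESeq2 called 22, limma 17 on log2(FPKM + 1) and limma 6 on log2(FPKM + 0.1) in place of 7. The rule of the study called 810 genes in TGFb1 against Control, 261 in place of 668 in TGFb1_G against TGFb1, and 817 in place of 4187 in TGFb1_G against Control. The cause of these shifts was not tested. Depth limits Uba7, with 4 to 12 counts in TGFb1 libraries, and the interferon ligands.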
